A study of Mus musculus with 28 samples.

Results

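The step from 50 cGy to 200 cGy of total body irradiation (TBI) was examined in peripheral blood mononuclear cells (PB MNCs) of C57Bl6 mice. The members were the 7 arrays titled 200cGy and the 7 titled 50cGy, which is 14 of the 28 arrays in the series. Every probe with at least 5 values at each dose was compared, which left 16706 of 16722 probes. Averaging the probes annotated to a single gene gave 9126 genes.

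All mice were 10-week-old females of the same strain and received a single fraction of gamma irradiation, or none. Blood was drawn 6 h after exposure, the mononuclear cells were separated on Ficoll-Hypaque, and 1 array was run per mouse. The nonirradiated group (0 cGy, 7 mice) is set beside the 2 doses where a gene's place on the dose scale matters. The 7 remaining mice received 1000 cGy and enter only the fit's estimate of spread within a dose, which stands behind every SE and p-value. No allele or agent other than the radiation was given. Each array compared RNA of 1 mouse in Cy5 with a universal mouse reference RNA in Cy3, so every value is a log2 ratio to that reference, shifted so that the array's median is 0. Values can be compared between mice for 1 gene, and not between genes. In these bulk samples fewer cells of a type and less RNA per cell cannot be told apart.

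As background, ionizing radiation breaks DNA and activates the kinase ATM, which stabilizes the transcription factor p53. p53 in turn induces genes that halt the cell cycle, such as Cdkn1a, and genes that promote cell death. Blood lymphocytes, B cells above all, are among the most radiosensitive cells of the body, whereas mature myeloid cells are resistant. NF-kB is another transcription factor that DNA damage and microbial products activate, and it induces cytokines, chemokines and its own inhibitor.

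The 2 doses differed over a large part of the array. Of the 9126 genes, 1795 were higher and 1882 were lower at 200 cGy than at 50 cGy, which is 40.3% of genes in either direction (limma, Benjamini-Hochberg adjusted p under 0.05 over all genes), with 19.7% higher and 20.6% lower. The counts of the gene lists are to be read against these shares. Among all probes, named or not, 3149 were higher (18.8%) and 3360 lower (20.1%), or 39.0% in all. The split between higher and lower calls depended on the scaling, with 1396 genes higher and 2139 lower after quantile normalization and 1070 higher and 2640 lower without centring. The median difference of all genes was 0.06 with centring and -0.08 without it, so changes are given relative to the array median.

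With median centring the larger changes were mostly increases. At least 1 log2 unit separated the doses upward for 316 genes and downward for 63, and at least 2 log2 units upward for 70 and downward for 5. These counts are given for median centring only, and the sizes depended on the scaling. After quantile normalization more of the falls named below passed 2 log2 units, such as Fcrl1 (-1.84 to -2.38) and Cd22 (-1.67 to -2.26). Tfrc hardly moved (-1.39 to -1.38). Among the rises Rab20 became smaller (2.76 to 2.43) and Il13ra1 hardly moved (3.03 to 3.02). In 807 genes the lowest 200 cGy array lay above the highest 50 cGy array (8.84%), and in 894 genes the reverse held (9.80%). Arrays of 200 cGy mice also varied more among themselves. The median SD over 7 arrays was 0.163 log2 units at 50 cGy and 0.230 at 200 cGy, and 77% of genes had the larger SD at 200 cGy.

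Some arrays stood apart from the others of their dose. Replicate 1 of 50 cGy had 77 missing values, where the others of its dose had 14 to 31, and its correlation across genes with the mean of the other 6 was 0.966. Replicate 6 of 200 cGy had the lowest such correlation at its dose, 0.956. With both left out, an alternative added after the data were seen, 1400 genes were higher and 1589 lower. A control array also matters for the myeloid genes described next, because replicate 7 of the controls held the highest control value for all 20 of the largest rises. On average it lay 2.21 log2 units above the other 6 controls for these genes.

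The largest rises included genes known from activated myeloid cells. The genes named as largest rises and falls were picked among those whose 7 and 7 arrays did not overlap, so their separation is given as a description. Acod1, which makes the antimicrobial metabolite itaconate in macrophages, lay between 0.24 and 0.72 at 50 cGy (median 0.54) and between 3.75 and 5.25 at 200 cGy (median 4.33). The difference was 3.98 ± 0.38 log2 units (SE, n = 7 per dose, limma adjusted p = 3.3e-09), or 15.8-fold. Cd14, the co-receptor for bacterial lipopolysaccharide, ranged from -1.62 to -0.73 at 50 cGy (median -1.08) and from 2.28 to 3.71 at 200 cGy (median 2.72). The difference was 3.92 ± 0.34 (SE, n = 7, limma adjusted p = 9.3e-10). Lcn2, a neutrophil granule protein that binds bacterial iron carriers, ranged from 0.14 to 0.75 (median 0.39) and from 3.65 to 5.00 (median 4.21) at the 2 doses. Its difference of 3.91 ± 0.27 (SE, n = 7) had a limma adjusted p of 7.5e-11. Slfn4, an interferon-inducible Schlafen gene of myeloid cells, went from 0.08 to 1.46 at 50 cGy (median 0.78) to 3.99 to 5.14 at 200 cGy (median 4.78), a difference of 3.91 ± 0.37 (limma adjusted p = 3.7e-09).

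Among the other members of the 20, Bst1, an ectoenzyme of myeloid cells, differed by 3.85. The receptors Clec5a (3.53), Lilrb4a (3.53), Clec4d (3.40), Clec4e (3.11), Cd300lf (2.85) and Ccr1 (2.81) rose as well. Clec4e is Mincle, a receptor for mycobacterial glycolipid, and Ccr1 is a chemokine receptor. Cytokine receptor subunits were also among them, with Il13ra1 at 3.03 and Csf2rb2, a beta chain of the interleukin-3 receptor, at 2.71. The others were Ifitm2 (3.17), Mtus1 (3.13), the iron exporter Slc40a1 (2.97), Tnfaip2 (2.95), the vesicle protein Rab20 (2.76), Lrrc25 (2.74) and the protease inhibitor Slpi (2.69). In 3 of the 20 genes a control array reached the 200 cGy range, and without replicate 7 of the controls none did. Probes of near-identical family members, such as those of Ifitm genes or of Csf2rb and Csf2rb2, may cross-hybridize, and their values are uncertain to that extent.

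**Figure D1:**
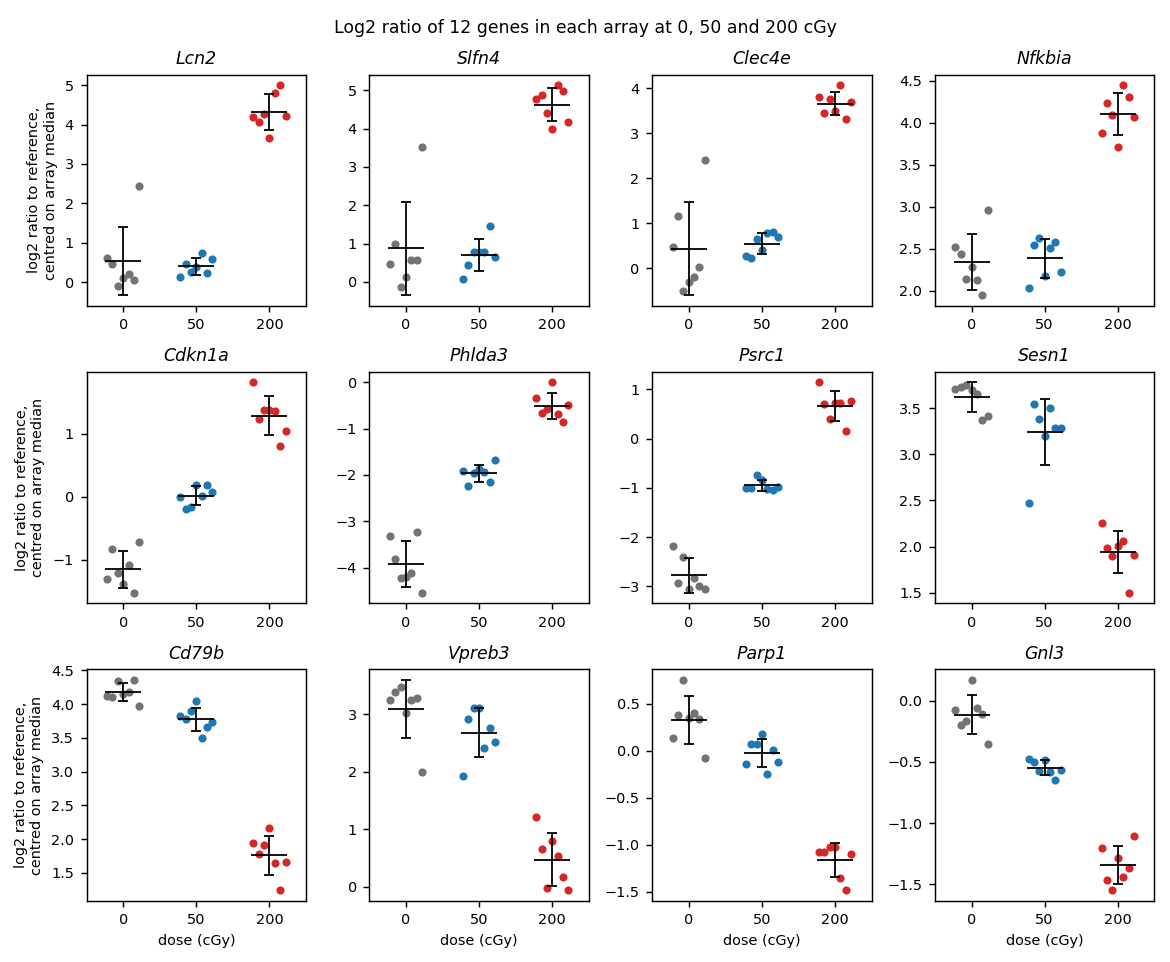
Log2 ratio to the reference RNA, centred on the array median (vertical axis), of 12 genes in each of 7 mice at 0, 50 and 200 cGy (horizontal axis, not to scale), with the mean and SD as bars. Lcn2, Slfn4, Clec4e and Nfkbia overlap between 0 and 50 cGy and are higher in all 200 cGy mice, Cdkn1a, Phlda3 and Psrc1 step up at both doses, and Sesn1, Cd79b, Vpreb3, Parp1 and Gnl3 are lowest at 200 cGy.

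Markers of neutrophils and monocytes were higher at 200 cGy too. All 9 measured neutrophil markers (of 30 listed) were higher at 200 cGy, against 19.7% of all genes, with a median difference of 2.40. They included the calprotectin subunits S100a8 (2.40) and S100a9 (1.56), the matrix protease Mmp9 (2.66) and Anxa1 (2.40), a regulator of neutrophil migration. Ficoll separation is meant to leave granulocytes behind. The mean of the list in an array ranged from 1.44 to 1.88 at 50 cGy and from 3.59 to 4.53 at 200 cGy, with no overlap, and from 1.28 to 3.00 in the controls, where the highest array was again replicate 7.

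Of 17 monocyte and macrophage markers 11 were higher and 0 lower (19.7% and 20.6% of all genes), with a median of 0.68. After quantile normalization 8 were higher and 2 lower. Spi1, which encodes the myeloid transcription factor PU.1, lay between 1.93 and 2.38 at 50 cGy (median 2.10) and between 3.38 and 4.18 at 200 cGy (median 3.67). Its groups were separate, and the difference was 1.59 ± 0.12 (SE, n = 7, limma adjusted p = 1.8e-10). The immunoglobulin receptors Fcgr3 (1.81) and Fcgr1 (1.88) rose too, whereas Csf1r, the growth factor receptor that defines the lineage, rose by 0.68. The mean of the list ranged from 1.65 to 1.95 at 50 cGy and from 2.59 to 2.96 at 200 cGy. The part of these marker changes in the inflammatory and interferon gene results was not tested.

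NF-kB and inflammatory genes made up the list with the second largest median, 1.10 over 33 measured genes, of which 27 were higher and 0 lower, or 23 and 2 after quantile normalization. At 50 cGy against the controls 3 of the same 33 were higher and 1 lower, where 8.02% of all genes were higher and 3.86% lower. Nfkbia, the NF-kB inhibitor that NF-kB itself induces, lay between 2.04 and 2.63 at 50 cGy (median 2.51) and between 3.71 and 4.45 at 200 cGy (median 4.09). All 200 cGy mice were above all 50 cGy mice, and the means differed by 1.72 ± 0.14 (SE, n = 7, limma adjusted p = 2.4e-10), or 3.29-fold. Tnf, the cytokine, ranged from 1.67 to 2.29 (median 1.87) and from 3.88 to 4.57 (median 4.04), a difference of 2.19 ± 0.19 (limma adjusted p = 9.3e-10) with no overlap.

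The called members included ligands, receptors and adaptors of the pathway. The chemokines Cxcl1 (2.56), Ccl2 (2.54), Cxcl2 (2.31) and Cxcl10 (2.03) rose, as did the receptors Tlr2 (2.48), Tlr4 (2.33) and Tnfrsf1a (1.60) and the adaptor Myd88 (1.51). Among nuclear regulators, the atypical inhibitor Nfkbiz rose by 2.63, but the subunits Rela (0.12), Relb (-0.13) and Nfkb2 (-0.11) were not called. Neither were Tnfaip3 (-0.20), a deubiquitinase that limits the pathway, and Il6 (0.08). Genes given in this and the other list paragraphs that lie outside the naming rule were chosen after their values were seen.

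Promoter sequences are shown for 4 genes to place these results beside the DNA upstream of them. RefSeq promoters (GRCm38.p6), taken as the 250 bases before the start, were searched on both strands for 8 motifs: the NF-kB motif, the core of the interferon-stimulated response element, the octamer ATGCAAAT, the p53 response element, the E box CACGTG, the cyclic AMP response element TGACGTCA, and the motifs of the myeloid factor PU.1 and the B cell factor EBF1. The NF-kB motif was in 10 of the 28 NF-kB and inflammatory genes with a promoter, and in 4.46% of all 27025 genes. Nfkbia and Tlr2, whose differences are given above, were among the 10, and so were Il6, Nfkb2 and Tnfaip3, which were not called. The list was made of genes of the NF-kB pathway, so its share of motifs is no result about the dose. The p53 response element was in 0 of 25 promoters of p53 targets and 0.0111% of all genes, which says only that these letters are not in this window. Of all genes 6.86% held the E box, 1.77% the cyclic AMP element, 0.385% the PU.1 motif and 0.914% the EBF1 motif. A match is a description of letters and not a site in use. Capitals mark the match, which starts 29 bases before the start of Nfkbia (chr12:55492648-55492897, minus strand). In Tlr2 2 overlapping matches start 172 and 173 bases before it (chr3:83841609-83841858, minus strand).
Nfkbia: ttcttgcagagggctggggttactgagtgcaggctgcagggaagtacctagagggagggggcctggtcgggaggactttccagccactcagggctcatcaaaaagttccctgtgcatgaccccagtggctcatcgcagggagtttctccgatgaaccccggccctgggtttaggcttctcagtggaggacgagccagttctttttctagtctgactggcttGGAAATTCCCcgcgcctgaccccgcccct
Tlr2: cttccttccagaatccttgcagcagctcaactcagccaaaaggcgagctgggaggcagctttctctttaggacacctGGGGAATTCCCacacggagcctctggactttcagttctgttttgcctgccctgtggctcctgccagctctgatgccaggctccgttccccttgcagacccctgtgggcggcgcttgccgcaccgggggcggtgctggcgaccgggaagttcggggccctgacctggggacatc

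Interferon-stimulated genes, which restrict viruses and are also induced in activated myeloid cells, were higher in 23 of 38 and lower in 2, with a median of 0.55. Without centring 17 were higher and 2 lower, and after quantile normalization 17 and 5. Ifitm2, a membrane protein that blocks viral entry, ranged from -1.16 to -0.55 at 50 cGy (median -0.82) and from 1.72 to 2.76 at 200 cGy (median 2.42). The difference was 3.17 ± 0.25 (SE, n = 7, limma adjusted p = 1.8e-10). Ifitm3 (1.79) and Slfn2 (1.44) followed, and the antiviral nucleotide sensors and effectors Oas2 (2.23), Oasl2 (1.83), Isg15 (1.40), Ifit1 (1.42) and Ifit3 (1.40) were higher too. Other members of the same response were not called, with Rsad2 at -0.06, Irf9 at 0.25 and Usp18 at 0.26. The 2 that fell were the ubiquitin ligase Trim25 (-0.97) and Ifi203 (-0.38).

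The core element was in 14 of 34 promoters of these genes and in 3.46% of all genes. The 14 include Rsad2, which was not called, and Ifi203, which fell. The list was made of interferon-stimulated genes, so its share of motifs is no result about the dose. The promoter of Ifitm2, the member with the largest change but for Slfn4, is shown with its match in capitals, 46 bases before the start (chr7:140955962-140956211, minus strand).
Ifitm2: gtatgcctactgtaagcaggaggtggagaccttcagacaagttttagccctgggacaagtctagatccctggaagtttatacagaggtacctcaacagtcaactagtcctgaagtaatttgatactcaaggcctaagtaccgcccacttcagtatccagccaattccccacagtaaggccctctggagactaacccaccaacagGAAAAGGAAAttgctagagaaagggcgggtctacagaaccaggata

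Of 33 measured p53 targets, 23 were higher at 200 cGy than at 50 cGy and 3 lower, where 19.7% and 20.6% of all genes were, and the median difference was 0.51. After quantile normalization 19 were higher and 6 lower. At 50 cGy against the controls 11 of the 33 were higher and 1 lower, where 8.02% and 3.86% of all genes were. Psrc1, a spindle protein gene that p53 induces, went from -1.05 to -0.74 at 50 cGy (median -1.0) to 0.15 to 1.14 at 200 cGy (median 0.72). The groups were separate, and the difference was 1.61 ± 0.14 (SE, n = 7, limma adjusted p = 9.3e-10), after a difference of 1.83 between the controls and 50 cGy. Cdkn1a, the cyclin-dependent kinase inhibitor p21, lay between -0.19 and 0.19 (median 0.01) at 50 cGy and between 0.81 and 1.81 (median 1.35) at 200 cGy, a difference of 1.27 ± 0.13 (limma adjusted p = 7.2e-09) with no overlap.

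Members of the p53 list differed in their values at 50 cGy. Ccng1, a cyclin that feeds back on Mdm2, was 1.44 above the controls at 50 cGy and a further 0.79 higher at 200 cGy. Phlda3, an inhibitor of AKT, showed 1.96 and then 1.45. Fas, the death receptor, ranged from 0.82 to 1.09 at 50 cGy (median 0.94) and from 2.24 to 2.74 at 200 cGy (median 2.46), and was -0.13 from the controls at 50 cGy (limma adjusted p = 0.56). Between the doses it rose by 1.52 ± 0.14 (limma adjusted p = 2.2e-09). Mdm2, the ubiquitin ligase of p53, likewise was 0.06 from the controls and then 0.48 higher. Bbc3, which encodes the BH3 protein PUMA, was 0.41 above the controls at 50 cGy and differed by -0.06 between the 2 doses (not called). The 50 cGy arrays enter both differences, which are therefore given side by side and not set against each other.

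The 3 members of the p53 list that fell were Sesn1, Plk2 and Ddb2. Sesn1, a sestrin that restrains mTOR signalling, lay between 2.47 and 3.54 at 50 cGy (median 3.29) and between 1.5 and 2.26 at 200 cGy (median 1.98). Every 200 cGy mouse was below every 50 cGy mouse, and the difference of the means was -1.29 ± 0.13 log2 units (limma adjusted p = 8.9e-09). Ddb2, a damage recognition factor of nucleotide excision repair, was 0.30 above the controls at 50 cGy and -0.56 between the doses, and the kinase Plk2 was -0.60. A pair of genes that the study names in its dose profiles also rose: Ei24, an apoptosis-associated membrane protein, by 0.76 ± 0.07 with no overlap (0.56 to 0.75 against 1.14 to 1.62), and Ppp1r2, an inhibitor of protein phosphatase 1, by 0.83 ± 0.09 (0.72 to 1.09 against 1.46 to 1.89).

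Of 29 measured DNA repair genes, 18 were lower and 0 higher, against 20.6% of all genes lower, and the median was -0.38. Parp1, which senses strand breaks, lay between -0.25 and 0.17 at 50 cGy (median 0.01) and between -1.48 and -1.02 at 200 cGy (median -1.08). Its arrays were apart, with a difference of -1.14 ± 0.11 (SE, n = 7, limma adjusted p = 2.4e-09). The mismatch repair gene Msh6 (-0.76), the damage kinases Atm (-0.74), Atr (-0.61) and Prkdc (-0.50), the end-joining subunits Xrcc5 (-0.67) and Xrcc6 (-0.50), and the single-strand binding protein Rpa1 (-0.65) fell with it.

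Cell death genes were called in both directions. Among pro-apoptotic genes 6 of 18 were higher and 4 lower, where 19.7% and 20.6% of all genes were, so the lower calls are near the share of all genes. Without centring 4 were higher and 5 lower, and the median went from 0.15 to 0.01. Casp4, an inflammatory caspase, ranged from -0.38 to 0.09 (median -0.16) at 50 cGy and from 1.56 to 2.37 (median 2.13) at 200 cGy, a difference of 2.19 ± 0.17 (limma adjusted p = 1.2e-10) without overlap. Casp1, which processes interleukin-1 beta, was 0.75 higher and Casp2 was -0.66. Of 12 anti-apoptotic genes 6 were higher and 0 lower with a median of 0.29, but 3 were higher and 1 lower both without centring (median 0.15) and after quantile normalization (0.07). The higher ones were led by the kinase Pim1 (1.47), the BCL2 family member Mcl1 (1.17) and Naip2 (1.02), which also senses bacterial protein.

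B cell genes made up the list that fell furthest. Of 16 measured markers (of 27 listed), 12 were lower and 0 higher, with a median of -1.43, and in all 12 the 7 and 7 arrays did not overlap (9.80% of all genes). Cd79b, which pairs with Cd79a to carry signals from the B cell receptor, lay between 3.49 and 4.04 at 50 cGy (median 3.78) and between 1.25 and 2.17 at 200 cGy (median 1.77). The difference was -2.01 ± 0.11 (SE, n = 7, limma adjusted p = 6.4e-13), a 4.03-fold reduction, after -0.40 between the controls and 50 cGy. Vpreb3, a chaperone-like protein of the B cell receptor, lay between 1.92 and 3.11 (median 2.77) and then between -0.06 and 1.21 (median 0.54), a difference of -2.21 ± 0.26 (limma adjusted p = 9.8e-08). Blnk, the adaptor that links the receptor to its kinases, was -1.69, and the other receptor chain Cd79a was -1.53. Ms4a1, which encodes CD20, went from 3.25 to 3.90 at 50 cGy to 2.22 to 2.89 at 200 cGy, a difference of -1.17 ± 0.18.

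Not every B cell marker moved. Ighm (-0.41), Cd37 (-0.22), the kinase Btk (-0.02) and Cd24a (0.07) were not called. Across the alternatives 12 to 16 of the 16 were lower and 0 higher. The mean of the list ranged from 3.02 to 3.75 at 50 cGy and from 2.01 to 2.46 at 200 cGy, and from 3.39 to 4.08 in the controls. The octamer was in 2 of 10 promoters of these genes, Vpreb3 and Blnk, and in 1.81% of all genes. It is shown in the Vpreb3 promoter (chr10:75948050-75948299, plus strand), where the match, in capitals on the opposite strand, starts 45 bases before the start. Because the list was made of B cell genes, its share of motifs is no result about the dose. Pou2af1, which encodes the coactivator of the proteins that bind the octamer, is itself on the B cell list and fell as well (-1.54). Any link between its fall and that of genes with an octamer was not tested.
Vpreb3: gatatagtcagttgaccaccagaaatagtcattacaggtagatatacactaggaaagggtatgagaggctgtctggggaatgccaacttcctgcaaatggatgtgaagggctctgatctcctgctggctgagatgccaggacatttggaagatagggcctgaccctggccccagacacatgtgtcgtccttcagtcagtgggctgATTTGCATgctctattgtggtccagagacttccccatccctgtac

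The 20 largest falls included further genes known from B cells. The inhibitory receptors Cd22 (-1.67), Siglecg (-1.68) and Cd72 (-1.34), the receptor-like Fcrl1 (-1.84), the low-affinity IgE receptor Fcer2a (-1.53), the proton channel Hvcn1 (-1.59) and the sialyltransferase St6gal1 (-1.40) were lower. So were a kappa light chain variable segment of immunoglobulin (-1.52), whose probe may detect related segments, and Zfp318 (-1.52), Hs3st1 (-1.94), Bcar3 (-1.63) and Fam43a (-1.37). Srpk3, a kinase of splicing factors, was -2.09. Scd1, the desaturase that makes monounsaturated fatty acids, lay between 2.02 and 2.53 at 50 cGy (median 2.14) and between -0.66 and 0.60 at 200 cGy (median 0.10), a difference of -2.10 ± 0.19 (limma adjusted p = 1.2e-09).

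T cell and NK cell markers had medians nearer to 0. Of 12 T cell genes 1 was higher and 3 lower, where 19.7% and 20.6% of all genes were, with a median of -0.06. Arrays were apart in 0 of the 12, against 8.84% of all genes apart upward and 9.80% downward, so these counts are near or below the shares of all genes. Cd3g, a chain of the T cell receptor complex, ranged from 3.85 to 4.37 (median 4.18) and from 3.45 to 4.18 (median 3.71), overlapping, with a difference of -0.44 ± 0.11 (limma adjusted p = 0.0022). Cd3e, another chain, was 0.33, a call that was lost without centring (0.19) and after quantile normalization (0.10). Cd28, a costimulatory receptor, was -0.39, a call that was lost without replicate 3 or 5 of 50 cGy or replicate 2, 3 or 6 of 200 cGy. Of the 12, 2 were called without replicate 3 or 5 of 50 cGy or replicate 3 or 6 of 200 cGy. After quantile normalization 0 T cell genes were higher and 8 lower, with a median of -0.46, and the NK list moved from a median of 0.28 to -0.18, so neither list has a settled direction. Of the 8 NK and cytotoxic genes Klrb1c was called higher (0.34) and Ctsw lower (-0.80), and Ccl5 (0.37), Gzma (0.48), Tbx21 (0.43), Ncr1 (0.22), Fasl (0.20) and Klrc1 (0.13) were not called. The Klrb1c call was lost without centring (0.20, limma adjusted p = 0.083) and after quantile normalization (0.05, limma adjusted p = 0.69). Ccl5 was called without replicate 1 of 200 cGy (0.47, limma adjusted p = 0.037). The Ctsw call was lost without replicate 3, 4 or 5 of 50 cGy or replicate 2, 3 or 6 of 200 cGy. Ptprcap, a CD45-associated protein of lymphocytes that the study names, was -0.36 ± 0.13 (limma adjusted p = 0.025), and the call was lost without replicate 3 of 50 cGy or replicate 5 of 200 cGy.

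MHC class II genes, which B cells and monocytes both use to present antigen, were lower in 4 of 6, with a median of -0.72. H2-DMa, which loads the peptide, lay between 3.55 and 4.50 at 50 cGy (median 4.21) and between 2.51 and 3.32 at 200 cGy (median 3.08), apart, with a difference of -1.07 ± 0.16 (limma adjusted p = 8.3e-06). Cd74, the invariant chain, was -1.09, H2-Ab1 -0.70 and H2-Aa -0.74, the last a call that was lost when replicate 2, 3 or 4 of 50 cGy or replicate 6 of 200 cGy was left out. H2-Eb1 (-0.03) and the master regulator Ciita (-0.19) were not called. After quantile normalization both were called lower, H2-Eb1 at -0.69 (limma adjusted p = 0.0025) and Ciita at -0.52 (limma adjusted p = 0.0091), so that 6 of 6 were lower with a median of -1.26.

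Platelet genes were higher in 6 of 10 and lower in 0, with a median of 0.81, but 3 were called without replicate 1 of 50 cGy or without replicate 6 of 200 cGy, and 9 without replicate 1 of 200 cGy. Leaving out replicate 2, 4 or 6 of 50 cGy, or replicate 2, 3, 4, 5 or 7 of 200 cGy, also gave 3, as did no centring, centring on a trimmed mean and quantile normalization. Plek, the platelet kinase substrate pleckstrin, ranged from 3.41 to 4.50 (median 4.09) and from 4.89 to 5.42 (median 5.2), with a difference of 1.16 ± 0.18. Of 10 erythroid genes Klf1, the erythroid transcription factor, was higher (0.95), and the transferrin receptor Tfrc (-1.39) and Ank1 (-0.37, a call lost without replicate 3 of 200 cGy) were lower. The 1 higher and 2 lower calls of this list are near or below the 19.7% and 20.6% of all genes. Tfrc is also used by dividing cells.

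**Figure D2:**
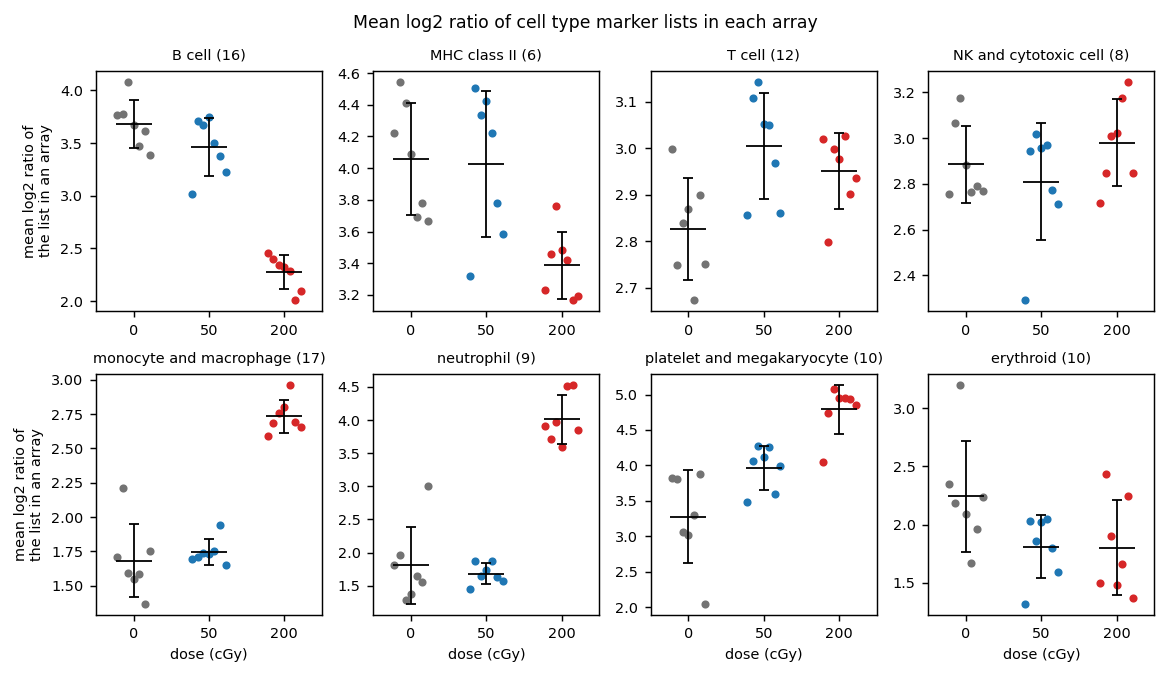
Mean log2 ratio of 8 cell type marker lists (vertical axis, number of measured genes in brackets) in each mouse at 0, 50 and 200 cGy (horizontal axis, not to scale), with the mean and SD as bars. The B cell list is lower and the monocyte and neutrophil lists are higher in every 200 cGy mouse than in every 50 cGy mouse, while the other 5 lists overlap.

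Genes of RNA and protein synthesis fell by smaller amounts. Ribosome biogenesis genes were lower in 27 of 35 and higher in 1 (20.6% and 19.7% of all genes), with a median of -0.50. At 50 cGy against the controls 8 were already lower and 1 higher, where 3.86% and 8.02% of all genes were. Gnl3, the nucleolar GTPase nucleostemin, lay between -0.65 and -0.48 at 50 cGy (median -0.56) and between -1.55 and -1.11 at 200 cGy (median -1.36), without overlap. The difference of the means was -0.80 ± 0.09 (limma adjusted p = 4.2e-08), after -0.44 in the first step. Nop56, a core protein of the particles that modify ribosomal RNA, was -0.93. Myc, a transcription factor known to drive such genes and a member of the immediate early list, was -0.74 ± 0.17. A link between its fall and theirs was not tested.

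Splicing and RNA processing genes were lower in 24 of 37 with 0 higher (median -0.35), and aminoacyl-tRNA synthetases in 12 of 17 with 0 higher (median -0.42). Examples were the splicing factor Srsf6 (-0.71), Hnrnpa1 (-0.73) and the valyl-tRNA synthetase Vars (-1.17). Heat shock and chaperonin genes were lower in 16 of 25 with 1 higher, the ER chaperone Hspa5 (0.46). The lower members included subunits of the cytosolic chaperonin that folds actin and tubulin, such as Cct2 (-0.50), and the mitochondrial chaperone Hspa9 (-0.65). At 50 cGy against the controls 7 of the 25 were already lower and 0 higher, where 3.86% and 8.02% of all genes were. The means of this list overlapped, from -1.24 to -0.73 at 50 cGy and from -1.28 to -1.10 at 200 cGy.

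Cytosolic ribosomal protein genes were lower in 16 of 50 with 0 higher (median -0.13), and 32 were lower without centring and 25 after quantile normalization. Proteasome genes were lower in 8 of 27 with 1 higher, where 20.6% and 19.7% of all genes were. Without centring 15 were lower and 0 higher, where 2640 and 1070 of all 9126 genes were. After quantile normalization 5 were lower and 1 higher, where 2139 and 1396 of all genes were. Oxidative phosphorylation genes were called in both directions, 10 higher and 18 lower of 64, where 19.7% and 20.6% of all genes were. The higher calls are below the share of all genes. The higher ones included the cytochrome oxidase subunits Cox8a (0.57), Cox6a1 (0.35) and Cox6c (0.29), and the lower ones the complex I subunit Ndufs3 (-0.51) and the complex III subunits Uqcrfs1 (-0.37) and Cyc1 (-0.36). Without centring the list had 2 higher and 27 lower, and after quantile normalization 14 and 14.

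**Figure D3:**
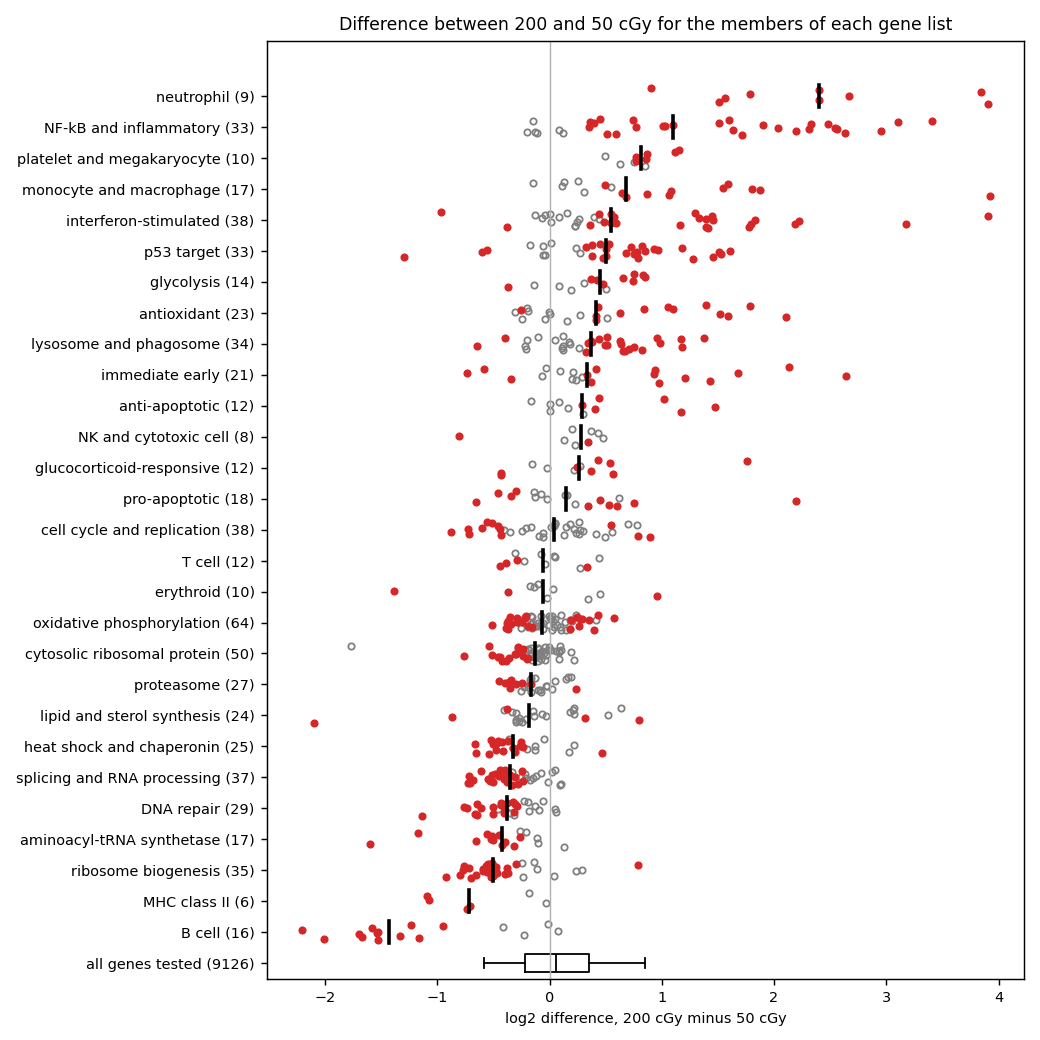
Log2 difference between 200 and 50 cGy (horizontal axis) of each measured member of 28 gene lists (vertical axis, number measured in brackets), with filled points for genes called by limma, open points for the others, and a bar at the list median. The box at the bottom spans the quartiles of all 9126 genes with whiskers at 5% and 95%. Medians run from -1.43 for B cell genes to 2.40 for neutrophil genes.

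Genes of oxidative defence, phagocytes and sugar use were called higher more often than lower. Of 23 antioxidant and iron genes 12 were higher and 1 lower, with a median of 0.41. Gsr, glutathione reductase, lay between 0.69 and 1.02 at 50 cGy (median 0.93) and between 2.55 and 3.44 at 200 cGy (median 3.10), a separate range and a difference of 2.11 ± 0.19 (limma adjusted p = 1.4e-09). Hmox1, which degrades haem, was 1.59, and the ferritin heavy chain Fth1 1.79. Lysosome and phagosome genes were higher in 20 of 34 and lower in 2, led by Ncf1, a subunit of the phagocyte oxidase (1.37), Lamp2 (1.18) and Atp6v1g1 (1.17), with 14 higher and 4 lower without centring. Glycolysis genes were higher in 8 of 14 and lower in 1, with the glucose transporter Slc2a1 at 0.85, Gapdh at 0.74 and Pkm at 0.66. Gapdh is often used as a loading control.

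Early response and growth genes did not move as a block. Of 21 immediate early genes 11 were higher and 3 lower, with a median of 0.33 that turned to -0.08 after quantile normalization. Ier3, a survival gene of NF-kB signalling, was 2.64, the stress sensor Gadd45b 2.13, the phosphatase Dusp1 1.68 and Fos 0.97, while Myc, Nr4a2 (-0.58) and Jun (-0.34) were lower. In the cell cycle list 3 of 38 were higher and 9 lower, with lower calls near the 20.6% of all genes and a median of 0.04 that was -0.10 without centring and -0.10 after quantile normalization. The lower members included the replication helicase subunits Mcm5 (-0.73) and Mcm6 (-0.60) and the kinase Cdk4 (-0.72), and the higher ones the D-type cyclins Ccnd1 (0.89) and Ccnd3 (0.79). Glucocorticoid-responsive genes were higher in 6 of 12 and lower in 2, with Tgm2 at 1.76, the receptor Nr3c1 at 0.54 and Tsc22d3 at -0.43, and without centring 2 were higher and 2 lower. In the lipid list 2 of 24 were higher and 3 lower, below the 19.7% and 20.6% of all genes. Elovl6, a fatty acid elongase, was 0.80 and Srebf2, the regulator of sterol synthesis, was -0.87. The list had 1 higher and 10 lower without centring.

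Some genes changed at 50 cGy and differed less between the 2 doses. Genes at full change were defined as called at 50 cGy against the controls with a difference of at least 0.5, with the 95% interval of the difference between 200 and 50 cGy inside 0.5 on either side. Of 397 genes called at that size at 50 cGy, 302 higher and 95 lower, 94 met the definition (23.7%). These comprised 77 higher and 17 lower. At 200 cGy against the controls 92 of the 94 were also called, where 43.3% of all genes were called. The definition largely sets this outcome, because it holds the 200 cGy mean near a 50 cGy mean that already differed from the controls. The 92 set beside the 43.3% are therefore no separate result about 200 cGy. The differences of the 94 genes between 200 and 50 cGy ran from -0.29 to 0.29, and 6 of the 94 were themselves called in that difference. For the remaining 303 the interval reached past the limit. The count depends on the limit, at 19 for 0.3 and 186 for 0.7, and was 146 after quantile normalization. It is a description with no test, since the 50 cGy arrays enter both differences.

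Sytl1, a synaptotagmin-like protein of vesicle transport, was the largest of these. It lay between -0.66 and 0.62 in the controls (median -0.17), between 0.84 and 1.28 at 50 cGy (median 0.95) and between 0.27 and 1.53 at 200 cGy (median 1.10). The first step was 1.08 ± 0.17 and the second 0.05 ± 0.17, and the 2 irradiated groups overlapped. Cst7, an inhibitor of lysosomal proteases in cytotoxic cells, showed 0.75 and -0.13, with 1.5 to 1.89 at 50 cGy and 1.42 to 1.77 at 200 cGy. The mitochondrial complex I protein Ndufa11 (0.78, then -0.24), the histone methyltransferase Kmt5c (0.75, then 0.10), the desaturase Scd2 (0.78, then -0.25) and the vesicle protein Syngr2 (0.72, then -0.06) had the same order. The second step of some of these was called in alternatives. For Scd2 it was -0.39 without centring (limma adjusted p = 0.0094) and -0.36 after quantile normalization (limma adjusted p = 0.014), and it was also called with array weights. For Ndufa11 it was -0.38 without centring (limma adjusted p = 0.017), and it was also called with trimmed mean centring, with both forms of array weights and without replicate 1 of 50 cGy or replicate 4 of 200 cGy. For Cst7 it was -0.49 after quantile normalization (limma adjusted p = 0.026). The same order was found in S100a13 (0.71, then 0.00), Fkbp8, an anti-apoptotic immunophilin (0.70, then -0.00), Cyhr1 (0.74, then 0.04), Ubl7 (0.69, then -0.04) and Arhgef5 (0.71, then 0.05). The GTP-binding protein gene Gtpbp8 was the lower one, at -0.73 and then 0.10.

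Other genes were named because their 2 differences had opposite signs. The 50 cGy arrays enter the 2 with opposite signs, so a chance deviation of those arrays gives the same form, and the pairs of values are a description with no test. Ogfrl1 lay between 1.17 and 2.29 in the controls (median 1.53), between 0.84 and 1.53 at 50 cGy (median 1.12) and between 2.66 and 3.24 at 200 cGy (median 2.91). It was -0.54 at 50 cGy against the controls and 1.76 ± 0.16 between the doses, where the groups did not overlap. Gadd45a, a stress gene on the p53 list, was -0.85 and then 1.18, with 50 cGy arrays from -0.69 to -0.14 and 200 cGy arrays from 0.47 to 1.28. Lbp, the lipopolysaccharide-binding protein (-0.81, then 1.40), the matrix protein gene Dpt (-1.22, then 1.31), the scaffold Cask (-0.29, then 1.15), the autophagy enzyme Atg7 (-0.65, then 1.07) and the sulfatase Arsg (-0.63, then 1.04) had the same signs. Mzb1, a chaperone of antibody-secreting B cells (0.49, then -1.05), and Pafah1b3 (0.40, then -1.01) had the opposite ones. The olfactory receptor Olfr874 (-1.52, then 1.12) was called at an adjusted p of 0.043 (limma), and the call was lost without replicate 1, 3, 6 or 7 of 50 cGy or replicate 2, 3, 5 or 6 of 200 cGy. It was also lost without centring, after quantile normalization and in the fit of the 14 arrays alone.

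**Figure D4:**
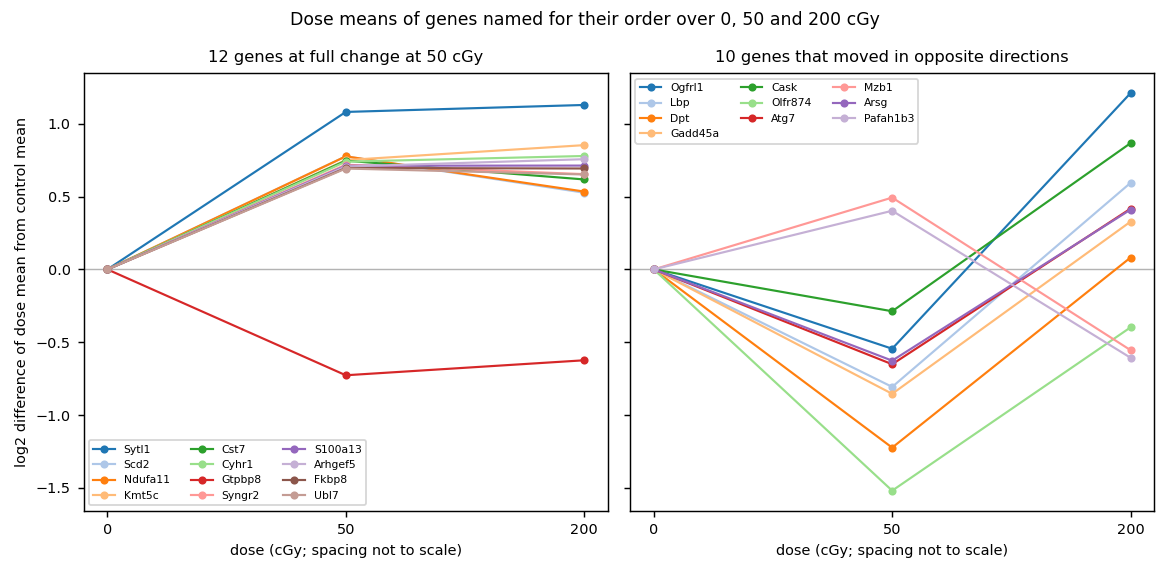
Log2 difference of the dose mean from the control mean (vertical axis) at 0, 50 and 200 cGy (horizontal axis, not to scale) for the 12 genes named at full change at 50 cGy (left) and the 10 named for opposite directions (right), 7 mice per dose. Lines on the left change less from 50 to 200 cGy than from 0 to 50 cGy, and lines on the right cross or return towards 0. The standard errors of the steps are in the text for Sytl1 and Ogfrl1.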

How the data were processed

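PB MNC RNA of 28 mice was measured on 2-colour oligonucleotide arrays with 1 array per mouse. The authors amplified the RNA, kept each spot's median of ratios, dropped dim spots, and deposited log2 ratios of sample to reference for 16722 probes. Their normalization between arrays is not given in the sources used. Ratios under 4 were whole thousandths for 97.4% of values, which fits a log2 scale. Arrays were centred on their median. limma 3.58.1 in R 4.3.3 fitted 4 group means (0, 50, 200 and 1000 cGy) to 28 arrays with 24 residual degrees of freedom. Probes of 1 gene (10820, with 232 of several genes and 5670 of none) were averaged by gene. A gene was called where its Benjamini-Hochberg adjusted p was under 0.05, and errors are SE of the fit. No mouse-level factor other than dose is in the labels. With 1 array per mouse, p-values measure the spread between mice and between arrays together. The labels give no processing batch, and a batch that followed dose could not be told apart from dose. The named genes were the 20 largest rises and 20 largest falls without overlap, 3 members per list by p, and short lists in full. Also named were 12 genes at full change, 10 of opposite direction, and Ei24, Ppp1r2, Ptprcap and Ms4a1 from among those the study names. The members and the 28 lists were chosen with earlier results of these data known. Alternatives were no centring, quantile and trimmed mean scaling, array weights, robust moderation, 14 arrays only, a replicate block, other limits on missing values, 1 probe per gene and leaving out arrays. The fit was also run on simulated data, in which few genes changed and the noise was independent between genes. Here 40.3% of genes were called, so that run does not give the share of false calls in these data. Python 3.11.15, pandas 2.3.3 and matplotlib 3.10.9 made the summaries and figures.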

Additional observations from a re-analysis of the deposited data

Results flagged for a closer look

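Samples far from the others of their dose were looked for in 352 sets of 7 arrays by Dixon's test, and 31 had such a sample, where chance gives about 1 in 20. Replicate 1 of 50 cGy was that sample in 22 of the 31. Values are log2 ratios, with the nearest other array of the dose in brackets. In replicate 1 of 50 cGy the genes were Ccr1 0.26 (1.47), Cd79a 3.53 (4.10), Fasl 1.57 (2.36), Kars -0.87 (-0.73), Ndufs3 -0.025 (-0.25), Atp5l -0.46 (-0.17), Dusp1 1.76 (2.18), Hspa9 -2.28 (-1.98), Gsr 0.69 (0.88), Atp6v1g1 -0.49 (-0.84), Hnrnpa1 -0.69 (-1.03), Gtpbp8 -1.15 (-1.61), Fkbp8 0.032 (0.36) and Mzb1 -1.10 (-0.58). The list means in the same array were p53 target 0.17 (0.31), NK and cytotoxic cell 2.29 (2.71), aminoacyl-tRNA synthetase -1.15 (-1.01), proteasome -0.71 (-0.62), immediate early 0.54 (0.77), antioxidant -1.04 (-0.72), lysosome and phagosome -0.092 (0.028) and splicing and RNA processing -0.091 (0.019). In replicate 6 of 50 cGy the list means were monocyte and macrophage 1.94 (1.76) and interferon-stimulated 1.52 (1.18). The remaining samples at 50 cGy were Casp2 -0.42 (-0.027) in replicate 5 and Cd3g 3.85 (4.15) in replicate 4. At 200 cGy replicate 6 gave Ncr1 1.33 (0.92) and H2-DMa 2.51 (3.02). Replicate 4 gave Mcl1 2.05 (2.51), replicate 1 the list mean platelet and megakaryocyte 4.05 (4.73), and replicate 2 the list mean glycolysis -1.17 (-1.26). The cause was not tested.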

How the results depend on the processing

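The count of called genes stayed within 1.5 times of 3677 in every alternative, from 2989 without both arrays that stood apart to 4659 with array weights. Leaving out each array in turn gave 3151 to 4032 genes, 5602 to 7140 probes and 75 to 105 genes at full change. With a block for the replicate number, 6347 probes and 3583 genes were called. Same-numbered arrays of the 2 doses had correlations of their deviations from -0.16 to 0.41, and 1 of 7 was closest to its own number. Replicates 1, 2 and 7 had 0.34, 0.41 and 0.30, and the others were negative. These values do not show a pairing of the mice by number, and whether same-numbered arrays were handled together was not tested. Genes at full change numbered 146 after quantile normalization, 19 with an interval limit of 0.3 and 186 with 0.7. Without centring the median of all genes was -0.081, and the medians that moved were p53 target 0.37, DNA repair -0.52, pro-apoptotic 0.0066, anti-apoptotic 0.15, T cell -0.20, monocyte and macrophage 0.54, ribosome biogenesis -0.64, cytosolic ribosomal protein -0.27, aminoacyl-tRNA synthetase -0.56, proteasome -0.30, oxidative phosphorylation -0.21, cell cycle and replication -0.099, immediate early 0.19, glycolysis 0.31, lipid and sterol synthesis -0.32, glucocorticoid-responsive 0.12, lysosome and phagosome 0.23 and splicing and RNA processing -0.49. After quantile normalization they were pro-apoptotic 0.010, anti-apoptotic 0.066, B cell -1.78, T cell -0.46, NK and cytotoxic cell -0.18, monocyte and macrophage 0.48, neutrophil 1.60, platelet and megakaryocyte 0.26, MHC class II -1.26, NF-kB and inflammatory 0.84, interferon-stimulated 0.36, cytosolic ribosomal protein -0.21, cell cycle and replication -0.099, immediate early -0.076, glycolysis 0.33 and lysosome and phagosome 0.29. Without replicate 2 of 200 cGy the pro-apoptotic median was 0.068, and leaving out each array in turn gave 0.07 to 0.18. Genes not called that changed sign were, without centring, Klrc1 -0.0079, Sytl1 -0.091, Kmt5c -0.036, Cyhr1 -0.10, Gtpbp8 -0.036, S100a13 -0.14 and Arhgef5 -0.089, after quantile normalization Ccl5 -0.15, Klrc1 -0.29, Gzma -0.42, Tbx21 -0.028, Fasl -0.20, Sytl1 -0.16 and S100a13 -0.16, with trimmed mean centring Cyhr1 -0.0015 and S100a13 -0.040, and without both arrays that stood apart Ubl7 0.020. With each array left out the ranges were Cyhr1 -0.030 to 0.10, S100a13 -0.023 to 0.051, H2-Eb1 -0.17 to 0.080, Fkbp8 -0.10 to 0.040, Ubl7 -0.13 to 0.046 and Sytl1 -0.031 to 0.18. Of 128 called genes named, 8 lost the call in some alternative. The cause was not tested. The deposited table has no intensities, so signal over background is unknown and the 7 arrays a dose limit the precision.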
